A study of Mus musculus with 24 samples.

Results

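Livers of adult mice that underwent 90 min of partial hepatic ischemia were compared with livers of adult mice that underwent a sham operation. The members were the 6 arrays that the sample titles place in these groups, 3 in each, of 24 arrays in the series. The ischemic group consisted of mice aged 12 to 14 months after 90 min of partial ischemia, and the sham group of mice of the same age after the operation without ischemia. The other arrays hold adult mice after 30 or 60 min of ischemia and mice aged 4 to 5 weeks after sham operation or 30, 60 or 90 min of ischemia, also with 3 arrays a group. Per the labels, the median and left lobes were taken into RNAlater, and total RNA was labelled as biotinylated cRNA for Affymetrix 3′ arrays. The labels name no strain, sex or reperfusion interval, and the sign /0 that follows the duration in the titles is not explained there. The design text counts 3 mice in each group, but no label ties an array to its own mouse. The p-values therefore measure the spread between arrays within a group, pooled over all 24 arrays of the series.

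Partial hepatic ischemia clamps the blood supply of some liver lobes, so that hepatocytes, sinusoidal endothelium and the resident macrophages of the sinusoids, the Kupffer cells, lose oxygen and substrates while blood still flows through the remaining lobes. Oxygen loss is known to stop oxidative phosphorylation, to slow protein synthesis and folding, and to switch on stress genes such as those of heat shock and of the immediate early response. Because whole lobes were used, the RNA is a mixture in which hepatocytes contribute most.

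Each deposited value divides a probe set's RMA value by its average over the 3 age-matched sham arrays, so a ratio of 1 is the sham level, and a log2 fold change is the difference between the groups' mean log2 ratios (90 min ischemia over sham). Brightness is not kept, so the presence of hepatocyte RNA cannot be checked from levels and genes cannot be ranked by level. The 16 measured hepatocyte markers had a median log2 fold change of -0.21, with per-array median ratios of 0.924, 0.921 and 0.746 after 90 min and 1.01, 0.978 and 1.01 after sham. Over all 26180 probe sets the 6 arrays had median ratios of 0.972 to 1.00. The standard deviation of the log2 difference between a pair of arrays was 0.181 to 0.240 within the 90 min group and 0.235 to 0.278 within the sham group. It was 0.268 to 0.335 between a 90 min array and sham array 1 or 2, and 0.385 to 0.392 between a 90 min array and sham array 3. Sham array 3 stood apart in several gene groups: of the 21 acute phase genes measured it was the highest sham array in 18, and likewise in 18 of the 21 Kupffer cell markers measured. Without it, Cd163 and Psme4 were the only members of the gene lists that passed, so that each other list given here had 0 members past the test in that fit.

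After 90 min, 1323 of 26180 probe sets differed from sham at an adjusted p under 0.05 (limma, 5.05%), of which 272 were higher (1.04%) and 1051 lower (4.01%). The median log2 fold change was 0.44 among the higher ones and -0.59 among the lower ones, and only 72 passed a log2 fold change of 1 in size, 2 of them upward and 70 downward. Among the 14351 genes with a symbol, each taken with 1 probe set, 842 passed (5.87%), 121 higher (0.843%) and 721 lower (5.02%), and the median over all of them was -0.04. All 3 ischemic arrays lay on the same side of all 3 sham arrays in 1310 of the 1323 probe sets that passed, a separation found in 36.5% of all probe sets. The count of calls depended on single arrays: 22 probe sets passed without sham array 3, 67 without ischemic array 1 and 120 without ischemic array 2, against 1152 without sham array 2. Each of the 1323 kept its direction and an unadjusted p under 0.05 whichever of the 6 arrays was left out. They were chosen for a small p in these same arrays, so this was close to fixed in advance and is no separate support. Quantile normalization of the 24 arrays left 6 calls, 3 higher and 3 lower, with the log2 fold changes of the 1323 at a median 66.4% of their size and in the same direction.

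**Figure D1:**
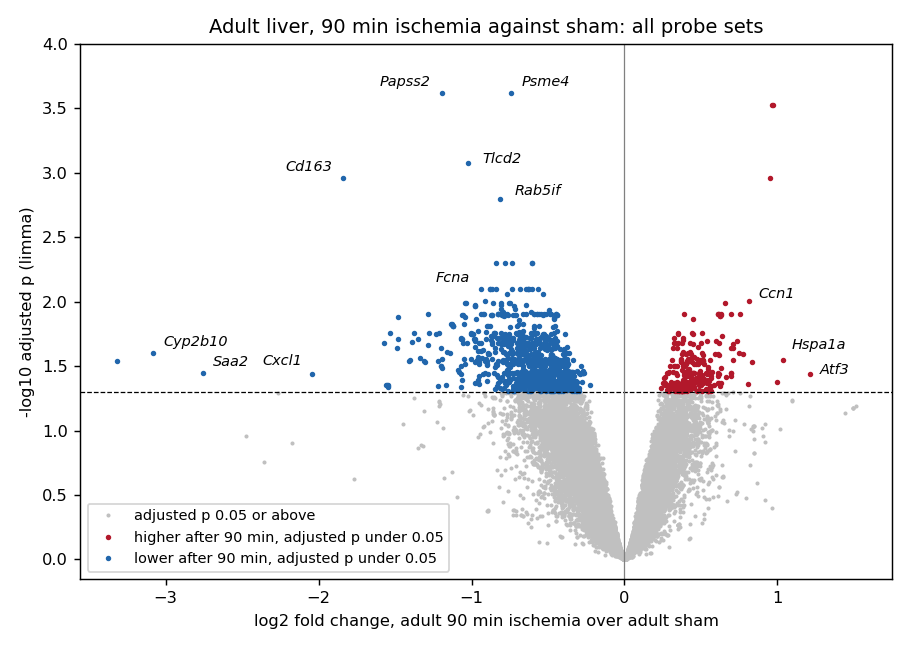
Each point is 1 of 26180 probe sets, with the log2 fold change of adult 90 min ischemia over adult sham on the x axis and the negative log10 of the limma adjusted p on the y axis; the dashed line marks an adjusted p of 0.05. The 1051 lower probe sets (blue) reach further from 0 than the 272 higher ones (red).

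A set of 19 probe sets passed in the full fit and in each of the 6 fits that left out 1 array, 16 lower and 3 higher, and 8 of them have a symbol. These 8 genes, all lower, were singled out after their values were seen. Psme4, which encodes the PA200 activator that caps the proteasome core, had ratios of 0.591, 0.579 and 0.625 after 90 min, against 1.01, 0.961 and 1.03 after sham. Papss2, which makes the sulfate donor for sulfation reactions, had ratios of 0.429, 0.410 and 0.467 after 90 min, against 0.908, 0.941 and 1.15 after sham. In both genes every ischemic array lay well under every sham array, and the log2 fold changes were -0.74 ± 0.08 for Psme4 and -1.19 ± 0.14 for Papss2 (SE, n = 3 arrays a group, limma adjusted p = 0.00024 for each).

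Cd163, the scavenger receptor through which macrophages take up haptoglobin-bound hemoglobin, had ratios of 0.201, 0.329 and 0.316 after 90 min, against 1.07, 0.780 and 1.15 after sham, and fell by 1.84 ± 0.25 on the log2 scale (adjusted p = 0.00109). Tlcd2, a membrane protein that affects phospholipid composition, stood at 0.527, 0.470 and 0.474 after 90 min and at 0.860, 1.00 and 1.14 after sham (log2 fold change -1.02 ± 0.13, adjusted p = 0.000833). Rab5if, a factor for assembly of respiratory chain complexes, had ratios of 0.590, 0.575 and 0.537 after 90 min and 1.12, 0.917 and 0.961 after sham (log2 fold change -0.81 ± 0.11, adjusted p = 0.0016). In each of these 3 genes every ischemic array lay below every sham array. Dhrs1, a short-chain dehydrogenase, Rab20, a small GTPase of endosomes and phagosomes, and Nus1, a subunit of the enzyme that makes the dolichol backbone for protein glycosylation, completed the set. Their log2 fold changes were -0.73 ± 0.11 for Dhrs1, -0.84 ± 0.13 for Rab20 and -0.68 ± 0.11 for Nus1, with adjusted p = 0.00498, 0.00498 and 0.00798.

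The 11 probe sets without a symbol in that set included all 3 that were higher. The one with the largest log2 fold change had ratios of 2.24, 1.96 and 1.71 after 90 min, against 0.974, 0.938 and 1.09 after sham. The log2 fold changes of the 3 were 0.95 to 0.97, and 2 of them had nearly the same ratio in each array, so that they cannot be counted as separate genes. Several lower ones without a symbol also nearly matched each other in each array. For example, 1 had ratios of 0.651, 0.692 and 0.599 after 90 min and another 0.650, 0.689 and 0.603. The 16 lower probe sets can therefore not be counted as 16 separate genes.

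The Kupffer cell markers were the gene group with the lowest median of those listed. Kupffer cells line the sinusoids and clear particles, old red cells and complement-coated material from portal blood, and their identity rests on macrophage factors such as PU.1. Of 23 markers written down, 21 were measured, all 21 had a log2 fold change below 0 and 16 fell past the test, against 5.02% of named genes. Their median log2 fold change was -0.94, against -0.04 over all named genes. In 19 of the 21 the ischemic arrays lay entirely below the sham arrays, a separation found in 26.4% of named genes in that direction.

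Among scavenger and complement receptors, Vsig4, which binds complement fragments, had ratios of 0.242, 0.441 and 0.345 after 90 min, against 0.796, 0.806 and 1.40 after sham (log2 fold change -1.54 ± 0.32, adjusted p = 0.0174). Cd5l, a secreted scavenger protein of macrophages, stood at 0.280, 0.411 and 0.354 after 90 min and at 0.849, 0.735 and 1.42 after sham (-1.48 ± 0.29 on the log2 scale, adjusted p = 0.013). Timd4, which binds phosphatidylserine on dying cells, stood at 0.239, 0.396 and 0.348 after 90 min and at 0.573, 0.570 and 1.86 after sham (-1.40 ± 0.34, adjusted p = 0.0283). In all 3 genes ischemic array 1 was the lowest and sham array 3 the highest of the 6, and without that sham array the log2 fold changes were -1.27 for Vsig4, -1.20 for Cd5l and -0.83 for Timd4 (adjusted p = 0.106, 0.0969 and 0.145). Fcna, the lectin ficolin A, had ratios of 0.432, 0.640 and 0.506 after 90 min, against 0.892, 1.04 and 1.07 after sham. Its fall was 0.94 ± 0.16 on the log2 scale (adjusted p = 0.00798). It passed in 5 of 6 fits with 1 array left out, but not in the fit without sham array 3. Clec1b and Clec4f, C-type lectins of Kupffer cells, had log2 fold changes of -1.23 (adjusted p = 0.0179) and -0.90 (adjusted p = 0.0154).

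Among the other markers, C1qa, C1qb and C1qc, the chains of the first complement component that liver macrophages make, fell, with log2 fold changes of -0.96, -1.29 and -0.94 (adjusted p = 0.0267, 0.0216 and 0.0243). Lyz2, macrophage lysozyme, and Ctss, the lysosomal protease cathepsin S, fell, with log2 fold changes of -1.41 and -1.28 (adjusted p = 0.029 and 0.0174). Outside the marker list, among the largest falls, Cybb, the catalytic subunit of the phagocyte oxidase, fell by 1.48 (adjusted p = 0.0196), and Adgre4, an adhesion receptor of macrophages, fell by 1.49 (adjusted p = 0.023). The markers Cd38, Folr2, Csf1r, the receptor for the macrophage growth factor, and Adgre1, which encodes F4/80, had log2 fold changes of -0.93, -0.81, -0.76 and -0.69, and all passed. Ptprc and Cd53, surface proteins of leukocytes in general and no members of the list, fell, with log2 fold changes of -1.39 and -1.38 (adjusted p = 0.0207 and 0.0174).

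Markers that did not pass were Marco, Slc40a1, Mrc1, Aif1 and Msr1, with log2 fold changes of -1.18, -0.70, -0.58, -0.50 and -0.45. Marco, a scavenger receptor, had ratios of 0.175, 0.227 and 0.310 after 90 min, against 0.247, 0.231 and 2.52 after sham (adjusted p = 0.231). Sham array 3 stood far above the other sham arrays, which overlapped the ischemic ones, and without it the log2 fold change was -0.05. Mrc1, the mannose receptor, showed the other pattern, with 0.475 in ischemic array 1, 0.833 and 0.750 in the other ischemic arrays and 0.996, 1.01 and 0.989 after sham (adjusted p = 0.0514).

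Across the 21 markers the per-array median ratio was 0.376, 0.632 and 0.528 in the 90 min arrays and 0.879, 0.826 and 1.22 in the sham arrays. Ischemic array 1 was the lowest of its group in all 21. Without sham array 3 the median was -0.79 and 1 marker, Cd163, passed. Without ischemic array 1 the median was -0.81 and 2 passed. With only the adult arrays in the fit 7 passed, at a median of -0.94. After quantile normalization 1 passed, at a median of -0.60. A code in the sample titles, whose meaning the labels do not give, has a part that ischemic array 1 shares with sham array 2 and ischemic arrays 2 and 3 share with sham array 3. The marker median was -1.15 between ischemic array 1 and sham array 2, and -1.14 between ischemic arrays 2 and 3 and sham array 3. In whole lobes, fewer Kupffer cells and less RNA of these genes per Kupffer cell cannot be told apart.

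**Figure D2:**
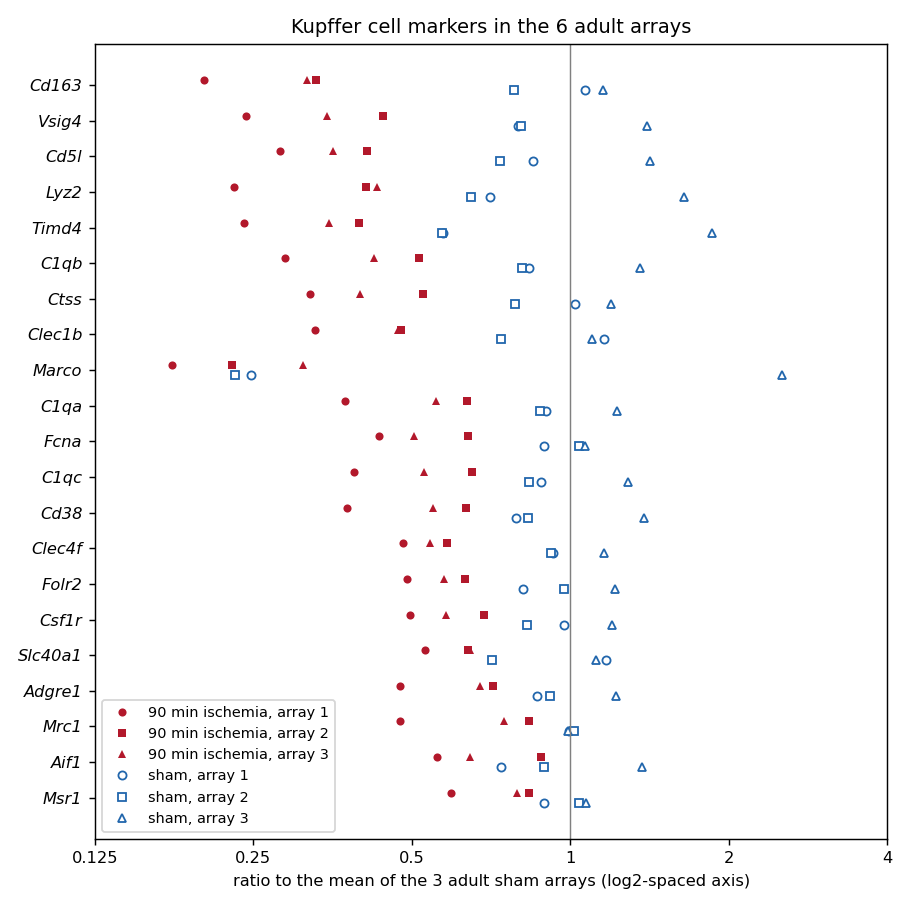
Ratios of the 21 measured Kupffer cell markers in the 3 adult 90 min ischemia arrays (filled) and the 3 adult sham arrays (open), as multiples of the sham mean on a log2-spaced axis, ordered by log2 fold change. Every marker except Marco and Aif1 has all filled points left of all open points.

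Of the 21 markers, 16 had a promoter among the RefSeq sequences (GRCm38.p6, 250 bases before the start). The word GAGGAAG, a form of the site bound by PU.1, occurred on either strand in 5 of these 16 (31.2%), namely Cd5l, Marco, C1qc, Mrc1 and Fcna. The share was 12.0% of all 27025 genes with such a promoter. Other words were searched too, here and in the proteasome, chaperone and immediate early lists. In the 16 markers the antioxidant response word TGACNNNGC had 18.8% (11.5% of all genes) and the heat shock word GAANNTTC 12.5% (7.73%). The TEAD word GGAATG had 0% (14.4%) and the AP-1 word TGANTCA 6.25% (7.82%). Whether any share differed from that of all genes was not tested. A match is a description of the letters and not a bound site. The promoters of Cd5l (chr3:87357631-87357880, plus strand) and Fcna (chr2:25627975-25628224, minus strand), as members that fell and hold GAGGAAG, are printed 5′ to 3′ with that word or its reverse complement in capitals. In Cd5l it starts 67 bases before the gene's start, and in Fcna it occurs 3 times, the pair nearer the start overlapping, the farthest beginning 182 bases before the start.
Cd5l: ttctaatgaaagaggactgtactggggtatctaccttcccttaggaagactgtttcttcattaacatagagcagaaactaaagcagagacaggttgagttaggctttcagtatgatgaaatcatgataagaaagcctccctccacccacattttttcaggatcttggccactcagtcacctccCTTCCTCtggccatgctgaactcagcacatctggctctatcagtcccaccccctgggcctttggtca
Fcna: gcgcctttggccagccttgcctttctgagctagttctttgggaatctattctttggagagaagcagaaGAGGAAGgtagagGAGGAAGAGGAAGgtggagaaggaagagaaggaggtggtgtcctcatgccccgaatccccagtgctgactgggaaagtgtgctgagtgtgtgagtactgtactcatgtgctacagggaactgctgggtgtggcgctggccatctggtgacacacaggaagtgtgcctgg

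Marker lists of the other liver cell types had medians nearer 0. Of 18 stellate cell markers 2 fell, Rgs5 (-0.80 ± 0.20 on the log2 scale, adjusted p = 0.0287) and Colec11 (-0.67 ± 0.18, adjusted p = 0.0395), and the list's median was -0.17. Against 5.02% of named genes that fell, 1 of 20 sinusoidal endothelial markers did, the hyaluronan scavenger receptor Stab2 (-0.42 ± 0.12, adjusted p = 0.0464), with a median of -0.22 and a median ratio of 0.654 in ischemic array 1 against 0.975 and 0.970 in the other ischemic arrays. Hnf4a, the nuclear receptor that maintains hepatocyte identity, was the 1 member of 16 hepatocyte markers that passed. It had ratios of 0.729, 0.584 and 0.698 after 90 min, against 1.18, 0.748 and 1.08 after sham (-0.56 ± 0.15, adjusted p = 0.042); between ischemic array 1 and sham array 2 the difference was -0.04.

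No member of the cholangiocyte, T and NK cell, B and plasma cell, neutrophil or erythroid lists passed (limma). At an unadjusted p under 0.05 there were 0 of 11 cholangiocyte, 2 of 16 T and NK cell, 2 of 10 B and plasma cell and 2 of 8 erythroid markers, all higher, and 4 of 14 neutrophil markers, all lower. Their medians were 0.13, 0.10, -0.08, 0.10 and 0.03. Of all 14351 named genes, 4121 stood at an unadjusted p under 0.05, in either direction. Among the neutrophil genes S100a8 had ratios of 0.544, 0.305 and 0.336 after 90 min, against 0.643, 0.914 and 1.44 after sham (adjusted p = 0.0704). Sham array 3 was again the highest. Of 38 olfactory receptor genes, taken as genes that liver should not express, none passed, 3 were higher at an unadjusted p under 0.05 and the median was 0.09.

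The proteasome list also held many members past the test. This complex destroys ubiquitin-tagged proteins: a barrel of alpha and beta rings holds the proteolytic sites, and a cap of ATPase and non-ATPase subunits binds, unfolds and feeds substrates. Of 41 genes measured, 40 lay below 0, 17 fell past the test and none rose, with a median of -0.54, against 5.02% of named genes that fell and a median of -0.04. In 37 of the 41 the groups did not overlap, as in 26.4% of named genes in that direction. The per-array median ratio was 0.686, 0.715 and 0.654 after 90 min, against 0.946, 0.992 and 1.07 after sham.

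By subcomplex, 5 of 6 alpha ring genes fell (median -0.74), among them Psma5, at 0.635, 0.574 and 0.521 after 90 min and 0.968, 0.988 and 1.04 after sham (-0.80 ± 0.21, adjusted p = 0.0382), and Psma1 (-0.76 ± 0.19, adjusted p = 0.0305). None of the 6 beta ring genes passed, with a median of -0.41 and 5 of 6 at an unadjusted p under 0.05, nor did the 3 inducible immunoproteasome subunits, with a median of -0.44 and 2 of 3 at that level. That unadjusted level held 4121 of the 14351 named genes, in either direction. Of 14 genes with Psmd symbols, 9 fell (median -0.57). These symbols cover the non-ATPase genes of the cap but also assembly factors such as Psmd10. The lowest was Psmd7, with ratios of 0.498, 0.527 and 0.573 after 90 min against 0.889, 0.924 and 1.19 after sham (-0.90 ± 0.22, adjusted p = 0.0287). Psmd10, which encodes the assembly chaperone gankyrin, fell by 0.74 ± 0.17 (adjusted p = 0.0233). Of the 6 cap ATPases 2 fell, Psmc6 (-0.75 ± 0.19 on the log2 scale, adjusted p = 0.0323) and Psmc3, named after its value was seen (-0.61 ± 0.18, adjusted p = 0.0471). Psmd3, a subunit of the cap singled out after its value was seen, was the 1 gene above 0, with ratios of 1.11, 1.04 and 1.07 after 90 min against 0.968, 1.04 and 0.989 after sham (0.10 ± 0.09, adjusted p = 0.485). Whether subcomplexes differed from each other was not tested.

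The count depended on single arrays and on the processing. Without sham array 3 only Psme4 passed, with a list median of -0.48, and without ischemic array 1 or 2 the count was also 1. It was 1 as well with only the adult arrays in the fit (median -0.54) and after quantile normalization (median -0.33). The list's median was -0.53 between ischemic array 1 and sham array 2, and -0.65 between ischemic arrays 2 and 3 and sham array 3. The COP9 signalosome, a complex related in structure to the proteasome cap that regulates ubiquitin ligases, was looked at after these values were seen. Of its 8 measured genes 4 fell, against 5.02% of named genes. They were Cops6, Cops4, Cops2 and Cops3, with log2 fold changes of -0.87, -0.70, -0.62 and -0.53, and the median over the 8 was -0.56. The count was 0 without sham array 3, without ischemic array 1 or 2, and after quantile normalization.

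**Figure D3:**
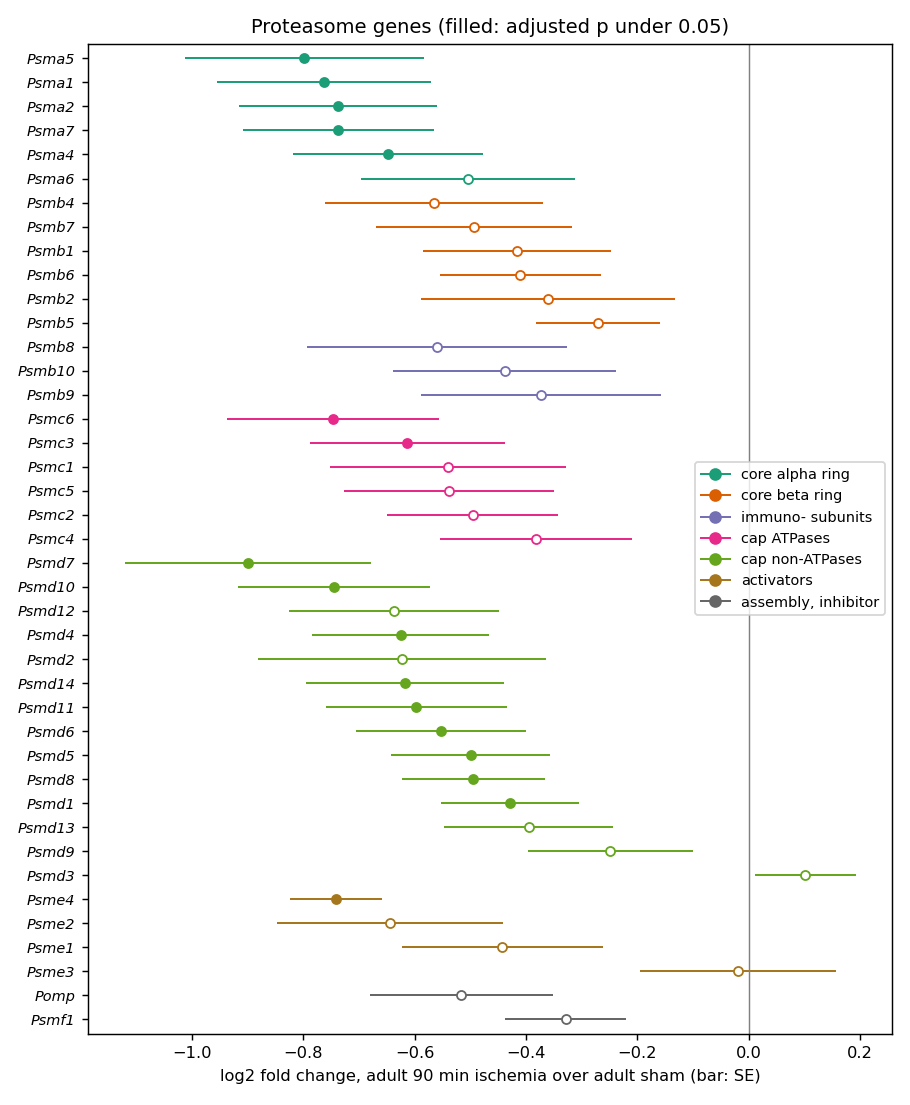
Log2 fold changes (90 min ischemia over sham, adult liver) of the 41 proteasome genes with the standard error as a bar, grouped by subcomplex and ordered within it; filled points passed at an adjusted p under 0.05. All but Psmd3 lie below 0, and none of the beta ring genes is filled.

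Most cytosolic chaperone genes lay below 0, with 1 past the test upward. Hspa1a, an inducible Hsp70 of the heat shock response, had ratios of 2.47, 1.69 and 2.06 after 90 min, against 0.915, 1.06 and 1.02 after sham (log2 fold change 1.04 ± 0.25, adjusted p = 0.0281). Hspa1a has a near-identical copy, Hspa1b, which its probe set may not separate. The groups did not overlap, and the difference was 1.22 between ischemic array 1 and sham array 2, and 0.86 between the other ischemic arrays and sham array 3. Hsp90aa1, the stress-inducible cytosolic Hsp90, stood at 0.391, 0.433 and 0.352 after 90 min and at 0.991, 0.796 and 1.21 after sham (-1.34 ± 0.32, adjusted p = 0.0274). Its constitutive partner Hsp90ab1 fell by 0.69 ± 0.20 (adjusted p = 0.0477), and Cct8, a subunit of the chaperonin that folds actin and tubulin, lay at -0.70 ± 0.21 (adjusted p = 0.0556). Of 33 cytosolic chaperone genes 28 lay below 0 and the median was -0.33. Past the test 1 rose and 2 fell, against 0.843% and 5.02% of named genes in those directions. Without sham array 3 none of the 3 passed, and Hspa1a then had an adjusted p of 0.112.

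The promoter of Hspa1a (chr17:34972157-34972406, minus strand, GRCm38.p6), as the chaperone gene that rose, is printed 5′ to 3′ with the heat shock word GAANNTTC in capitals, which begins 104 bases before the start. That word occurred on either strand in 8 of 29 chaperone genes with a promoter (27.6%), against 7.73% of all genes with a promoter. The antioxidant response word TGACNNNGC occurred in 7 of the 29 (24.1%), against 11.5% of all such genes. Of the 8 genes with the heat shock word, Hspa1a alone passed the test. Dnaja1 and Cct2 had log2 fold changes of -0.61 and -0.60 (adjusted p = 0.0529 and 0.0563), and the values of the others are not given here.
Hspa1a: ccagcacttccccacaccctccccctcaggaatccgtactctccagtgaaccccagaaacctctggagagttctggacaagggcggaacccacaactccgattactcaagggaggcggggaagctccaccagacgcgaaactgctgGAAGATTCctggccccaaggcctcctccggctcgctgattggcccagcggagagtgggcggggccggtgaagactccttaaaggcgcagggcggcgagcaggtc

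In the endoplasmic reticulum, 4 of 24 genes fell and none rose, with a median of -0.45, against 5.02% of named genes that fell. The count was 4 without sham array 2 and 0 without any other single array. Srp54a, a subunit of the particle that brings ribosomes to the membrane, had ratios of 0.311, 0.302 and 0.364 after 90 min, against 0.815, 0.713 and 1.47 after sham (-1.55 ± 0.43, adjusted p = 0.044), and without sham array 3 its log2 fold change was -1.23 (adjusted p = 0.189). Hsp90b1, the lumenal Hsp90, stood at 0.503, 0.449 and 0.484 after 90 min and at 0.969, 0.869 and 1.16 after sham (-1.05 ± 0.24, adjusted p = 0.0211). Xbp1, the factor that expands the folding capacity of the compartment, fell by 0.90 ± 0.23 (adjusted p = 0.0307), and the fourth was Canx, calnexin (-0.70, adjusted p = 0.045), named after its value was seen. In these genes no ischemic array overlapped a sham array. Hspa5, the main lumenal Hsp70, had ratios of 0.679, 0.650 and 0.446 after 90 min and 1.07, 0.818 and 1.11 after sham and did not pass (adjusted p = 0.117). In mitochondria 2 of 15 chaperone and protease genes fell, Grpel1 (-0.60 ± 0.16, adjusted p = 0.0361) and Dnaja3 (-0.39 ± 0.08, adjusted p = 0.0179).

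Among named genes past the test whose groups did not overlap, the largest rise was that of Atf3, a stress-induced transcription factor of the integrated stress response. It had ratios of 1.20, 2.56 and 3.92 after 90 min, against 0.790, 1.15 and 1.07 after sham (1.22 ± 0.32, adjusted p = 0.0362). The rise was uneven: ischemic array 1 exceeded the highest sham array only slightly, and the difference was 0.07 between that array and sham array 2 but 1.57 between the other ischemic arrays and sham array 3. Ccn1, a matricellular protein induced by YAP and by other early signals, stood at 1.35, 1.92 and 2.08 after 90 min and at 0.931, 1.11 and 0.956 after sham (0.82 ± 0.14, adjusted p = 0.00995), and it passed in 5 of 6 fits with 1 array left out. Nr4a1, an orphan nuclear receptor of the immediate early class, rose by 0.83 ± 0.21 (adjusted p = 0.0296) although its groups overlapped, with 1.35, 2.14 and 1.70 after 90 min against 0.972, 1.39 and 0.641 after sham. Between ischemic array 1 and sham array 2 its difference was -0.04.

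Fos, Jun and Egr1, the classic immediate early genes, did not pass, and their sham arrays lay far apart. Fos had ratios of 0.838, 1.66 and 2.17 after 90 min, against 0.388, 2.12 and 0.489 after sham (0.97 ± 0.72, adjusted p = 0.395). Jun had 1.02, 2.33 and 1.54 after 90 min, against 0.548, 1.86 and 0.589 after sham (0.87 ± 0.49, adjusted p = 0.256). In both genes, and in Egr1 (0.52 ± 0.43, adjusted p = 0.443), sham array 2 lay far above the other sham arrays and within or above the range of the ischemic arrays. Of 26 immediate early factors 2 rose and none fell, against 0.843% and 5.02% of named genes in those directions, with a median of 0.22. Of 24 integrated stress response genes 2 rose, and the median was -0.10. They were Atf3, which is a member of both lists, and Ppp1r15a, the phosphatase subunit that restarts translation (0.39 ± 0.11, adjusted p = 0.044).

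The promoter of Ccn1 (chr3:145649986-145650235, minus strand, GRCm38.p6), the gene of this group that stayed past the test most often, is printed 5′ to 3′. Capitals mark CATTCC, the reverse complement of GGAATG, the word bound by the TEAD partners of YAP, which begins 103 bases before the start. The word was found on either strand in 14.4% of all genes with a promoter. Among the 20 immediate early factors with a promoter it was found in 3 (15%). In these 20 the AP-1 word TGANTCA was found in 0, against 7.82% of all genes. The antioxidant response word TGACNNNGC was found in 6 of them (30%), against 11.5% of all genes.
Ccn1: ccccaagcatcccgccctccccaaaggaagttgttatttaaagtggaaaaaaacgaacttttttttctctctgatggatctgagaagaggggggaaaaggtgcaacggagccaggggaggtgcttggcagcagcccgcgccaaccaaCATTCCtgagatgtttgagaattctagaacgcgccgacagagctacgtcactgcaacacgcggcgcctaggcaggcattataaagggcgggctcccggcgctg

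Gsn, the actin-severing protein gelsolin, had ratios of 1.82, 1.58 and 1.74 after 90 min, against 0.813, 1.32 and 0.862 after sham (0.81 ± 0.23, adjusted p = 0.0436). Dpt, the matrix protein dermatopontin, had 1.95, 1.69 and 1.44 after 90 min, against 0.960, 1.23 and 0.807 after sham (0.77 ± 0.18, adjusted p = 0.0256). Every ischemic array exceeded every sham array in both. Of 30 collagen and matrix genes 3 rose, Dpt, the elastic fibre protein Fbln5 (0.51 ± 0.11, adjusted p = 0.0174) and Col6a2 (0.35, adjusted p = 0.0179), named after its value was seen, and none fell, against 0.843% of named genes that rose. The list's median was 0.13. Cnn1, calponin of smooth muscle, rose by 0.50 ± 0.12 (adjusted p = 0.0249), while Acta2 and Tagln, its partners in contractile cells, lay at 0.49 and 0.46 with overlapping groups (adjusted p = 0.144 and 0.0955).

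Sestd1 had ratios of 1.54, 1.54 and 1.96 after 90 min, against 1.15, 0.804 and 1.05 after sham (0.76 ± 0.14, adjusted p = 0.0126), and passed in 5 of 6 fits with 1 array left out. Rhbdl2, a membrane protease, Defb10, a defensin, Dio3os, a noncoding transcript beside the thyroid hormone deiodinase gene Dio3, BC051142, Tmem179 and Gm5142 rose by 0.69 to 1.00 on the log2 scale (Defb10 0.69, Dio3os 1.00), with adjusted p of 0.0125 for Defb10 and 0.0421 for Dio3os at the ends of the range. Prkaa2, which encodes a catalytic alpha chain of AMPK, the energy-sensing kinase, rose by 0.56 ± 0.15 (adjusted p = 0.0376), with 1.69, 1.34 and 1.41 after 90 min against 0.920, 1.15 and 0.928 after sham. Its paralog Prkaa1 lay at -0.59 ± 0.20 (adjusted p = 0.0828) and the deacetylase Sirt1 fell by 0.68 ± 0.19 (adjusted p = 0.0461).

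Among acute phase and chemokine genes 4 fell (5.02% of named genes fell), and the sham arrays of several lay far apart. Saa2, a serum amyloid A protein that hepatocytes release in the acute phase, had ratios of 0.0804, 0.0897 and 0.0701 after 90 min, against 0.173, 0.369 and 2.46 after sham (-2.76 ± 0.73, adjusted p = 0.0357). Saa2 is also close in sequence to Saa1, so their signals may mix. Sham array 3 lay far above the other sham arrays, and without it the log2 fold change was -1.67 and the adjusted p 0.183. Orm2, an acid glycoprotein, showed the same spread, with 0.109, 0.117 and 0.116 after 90 min and 0.111, 0.518 and 2.37 after sham, and did not pass (adjusted p = 0.125). Saa4, the constitutive serum amyloid A, stood at 0.540, 0.494 and 0.480 after 90 min and at 0.823, 0.874 and 1.30 after sham (-0.96 ± 0.22, adjusted p = 0.0243).

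Of 21 acute phase genes all lay below 0 and 2 fell past the test, against 5.02% of named genes that fell. The list's median was -0.62. It was -0.42 without sham array 3, where none passed. Cxcl1, a chemokine that attracts neutrophils, had ratios of 0.132, 0.175 and 0.370 after 90 min, against 0.849, 0.406 and 1.75 after sham (-2.04 ± 0.54, adjusted p = 0.0364; -1.52 without sham array 3, adjusted p = 0.179), and Ccl6 fell by 0.96 ± 0.24 (adjusted p = 0.0283). These were the 2 of 24 chemokine and cytokine genes that passed, and the list's median was 0.03, with 9 of 24 below 0. Tnf had ratios of 1.00, 1.11 and 1.15 after 90 min and 0.974, 0.885 and 1.14 after sham (adjusted p = 0.551). Cxcl10 and Cxcl2, also chemokines, were high in ischemic array 3 alone, at 3.21 and 2.30, with adjusted p = 0.308 and 0.246. None of 20 NF-kB feedback genes and none of 20 interferon-stimulated genes passed, with 5 and 7 lower and 0 higher at an unadjusted p under 0.05 and medians of -0.17 and -0.26. Of all 14351 named genes, 4121 stood at that unadjusted level, in either direction.

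Of 27 targets of the hypoxia-inducible factors none rose and 3 fell, the oxidase Ero1a (-0.85 ± 0.24, adjusted p = 0.0476), the mitophagy receptor Bnip3l (-0.58 ± 0.14, adjusted p = 0.0247) and heme oxygenase Hmox1 (-0.67 ± 0.19, adjusted p = 0.0458), and the list's median was -0.21. The share of named genes that fell was 5.02%, and the count was 3 without sham array 2 and 0 without any other single array. Hmox1 had ratios of 0.510, 0.627 and 0.690 after 90 min against 1.14, 0.630 and 1.23 after sham, so that its groups overlapped. Vegfa, the growth factor that hypoxia induces in many tissues, had 0.916, 0.883 and 1.02 after 90 min against 1.04, 0.959 and 1.00 after sham (-0.09 ± 0.09, adjusted p = 0.554). Of 15 p53 and growth arrest genes 1 fell, Gadd45a (-1.17 ± 0.33, adjusted p = 0.0442), and the list's median was -0.13. Of 21 YAP and TGF-beta genes 1 rose, Ccn1, and 2 fell, the receptors Axl (-0.83 ± 0.22, adjusted p = 0.037) and Tgfbr2 (-0.48 ± 0.12, adjusted p = 0.0274). Gja4, the endothelial connexin 37, and Ptgs1, cyclooxygenase 1, fell, with log2 fold changes of -0.59 ± 0.16 and -0.72 ± 0.21 (adjusted p = 0.0423 and 0.0473).

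Among metabolic genes of the hepatocyte, the lowest log2 fold change of those described was that of Cyp2b10, a xenobiotic oxidase driven by the receptor CAR, which had ratios of 0.258, 0.0736 and 0.0379 after 90 min, against 1.75, 0.250 and 1.00 after sham (-3.08 ± 0.73, adjusted p = 0.0251). Ischemic array 1 and sham array 2 overlapped, with a difference of 0.04 between them, while between the other ischemic arrays and sham array 3 the difference was -4.25. Of 34 genes of cytochrome P450 families 1 to 4 it was 1 of 4 that fell, with Cyp3a13 (-0.95 ± 0.24, adjusted p = 0.0296), the vitamin D 25-hydroxylase Cyp2r1 (-0.88 ± 0.17, adjusted p = 0.0126) and Cyp2j5 (-0.57 ± 0.15, adjusted p = 0.0346), against 5.02% of named genes that fell, and the list's median was -0.15. Cyp2r1 was even across arrays, at 0.591, 0.598 and 0.458 after 90 min and 0.994, 0.993 and 1.01 after sham, and passed in 5 of 6 fits with 1 array left out.

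In lipid synthesis 2 of 30 genes fell, both desaturases. For this list and those below, the share of named genes that fell was 5.02%. Scd1 had ratios of 0.596, 0.443 and 0.616 after 90 min, against 1.16, 0.827 and 1.02 after sham (-0.86 ± 0.15, adjusted p = 0.0101, also in 5 of 6 such fits), and Fads2 had 0.603, 0.600 and 0.631 after 90 min, against 0.948, 0.941 and 1.11 after sham (-0.71 ± 0.14, adjusted p = 0.0154). Neither gene's groups overlapped. Of 33 glutathione and Nrf2-target genes 7 fell and none rose, among them thioredoxin reductase Txnrd1 (-0.62 ± 0.13, adjusted p = 0.0191) and the glutathione transferase Gstm6 (-0.74 ± 0.19, adjusted p = 0.0305), with a median of -0.28. Of 12 urea cycle and ammonia genes all lay below 0 and 3 fell, Oat (-0.75 ± 0.17, adjusted p = 0.0209), the ammonia channel Rhbg (-0.83 ± 0.23, adjusted p = 0.0431) and the aspartate carrier Slc25a13 (-0.55 ± 0.15, adjusted p = 0.0376). Of 22 bile acid synthesis and transport genes 3 fell, the uptake carrier Slco1b2 (-0.74 ± 0.17, adjusted p = 0.0257), the exporter Abcc4 (-0.78 ± 0.21, adjusted p = 0.0413) and Cyp27a1 (-0.42 ± 0.12, adjusted p = 0.0472).

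Metallothionein genes, which metals and glucocorticoids induce, differed widely between sham arrays. Mt2, a metallothionein, had ratios of 0.0521, 0.0995 and 0.236 after 90 min, against 1.23, 0.0789 and 1.69 after sham (-2.36 ± 1.09, adjusted p = 0.174). Mt1 had 0.0986, 0.199 and 0.356 after 90 min, against 1.26, 0.137 and 1.60 after sham (adjusted p = 0.237). Sham array 2 lay among the ischemic arrays in both. Steap4, a metalloreductase of the iron list, fell by 1.22 ± 0.30 (adjusted p = 0.0288).

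All 53 measured genes of oxidative phosphorylation lay below 0, with a median of -0.35, and 4 passed, against 5.02% of named genes that fell. The count was 1 without sham array 2 and 0 without any other single array. They were Sdhd, a membrane anchor of complex II, at 0.616, 0.628 and 0.514 after 90 min and 1.01, 1.03 and 0.960 after sham (-0.78 ± 0.17, adjusted p = 0.0204), and the complex I genes Ndufs4, Ndufa9 and Ndufs3 (-0.61, -0.52 and -0.49; adjusted p = 0.048, 0.0378 and 0.0354), of which the last pair was named after the values were seen. Ischemic array 3 was the lowest of its group in 52 of the 53 genes, with a median ratio of 0.651 against 0.838 and 0.856 in the other ischemic arrays. Without it the list's median was -0.23. Among the sham arrays, array 2 was the highest in 41 and array 3 the lowest in 42 of the 53. The genes thus moved together by array and are not 53 separate observations. Of all named genes 56.5% lay below 0. The medians of complexes I to V lay between -0.39 and -0.34. Of 69 cytosolic ribosomal protein genes written down 21 were measured, with 20 below 0, a median of -0.31 and none past the limma test (5 lower at an unadjusted p under 0.05). Ischemic array 3 was the lowest of its group in 18 of them. An unadjusted p under 0.05 was reached by 4121 of the 14351 named genes, in either direction. Mitochondrial ribosomal protein genes, looked at after values were seen, had 14 of 73 past the test, all lower, with 71 below 0 and a median of -0.34. Without sham array 3 none of the 73 passed. In splicing, 4 of 25 genes fell, led by Hnrnpm (-0.72 ± 0.18, adjusted p = 0.0288), with a median of -0.35.

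Of 32 coagulation and complement genes 31 lay below 0 and 1 fell (5.02% of named genes fell), of 18 apolipoproteins and plasma carriers all lay below 0 and 1 fell, and of 20 glucocorticoid-responsive genes 1 fell, with medians of -0.28, -0.19 and -0.46. In the glucocorticoid-responsive list sham array 2, at a median ratio of 0.628, lay among the ischemic arrays, at 0.869, 0.724 and 0.567, and below sham arrays 1 and 3, at 1.14 and 1.09. No gene passed among 34 PPARalpha targets, 21 genes of gluconeogenesis and fasting, 19 clock genes, 17 genes of growth hormone signalling, 10 MHC class II genes, 12 MAPK phosphatases and feedback genes or 32 cell cycle genes (limma). At an unadjusted p under 0.05 these lists held 9, 5, 2, 4, 0, 2 and 3 genes, and their medians ran between -0.21 and 0.08. Over all named genes, 4121 of 14351 stood at that level, in either direction. Of 29 autophagy genes 2 fell, and the median was -0.17.

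**Figure D4:**
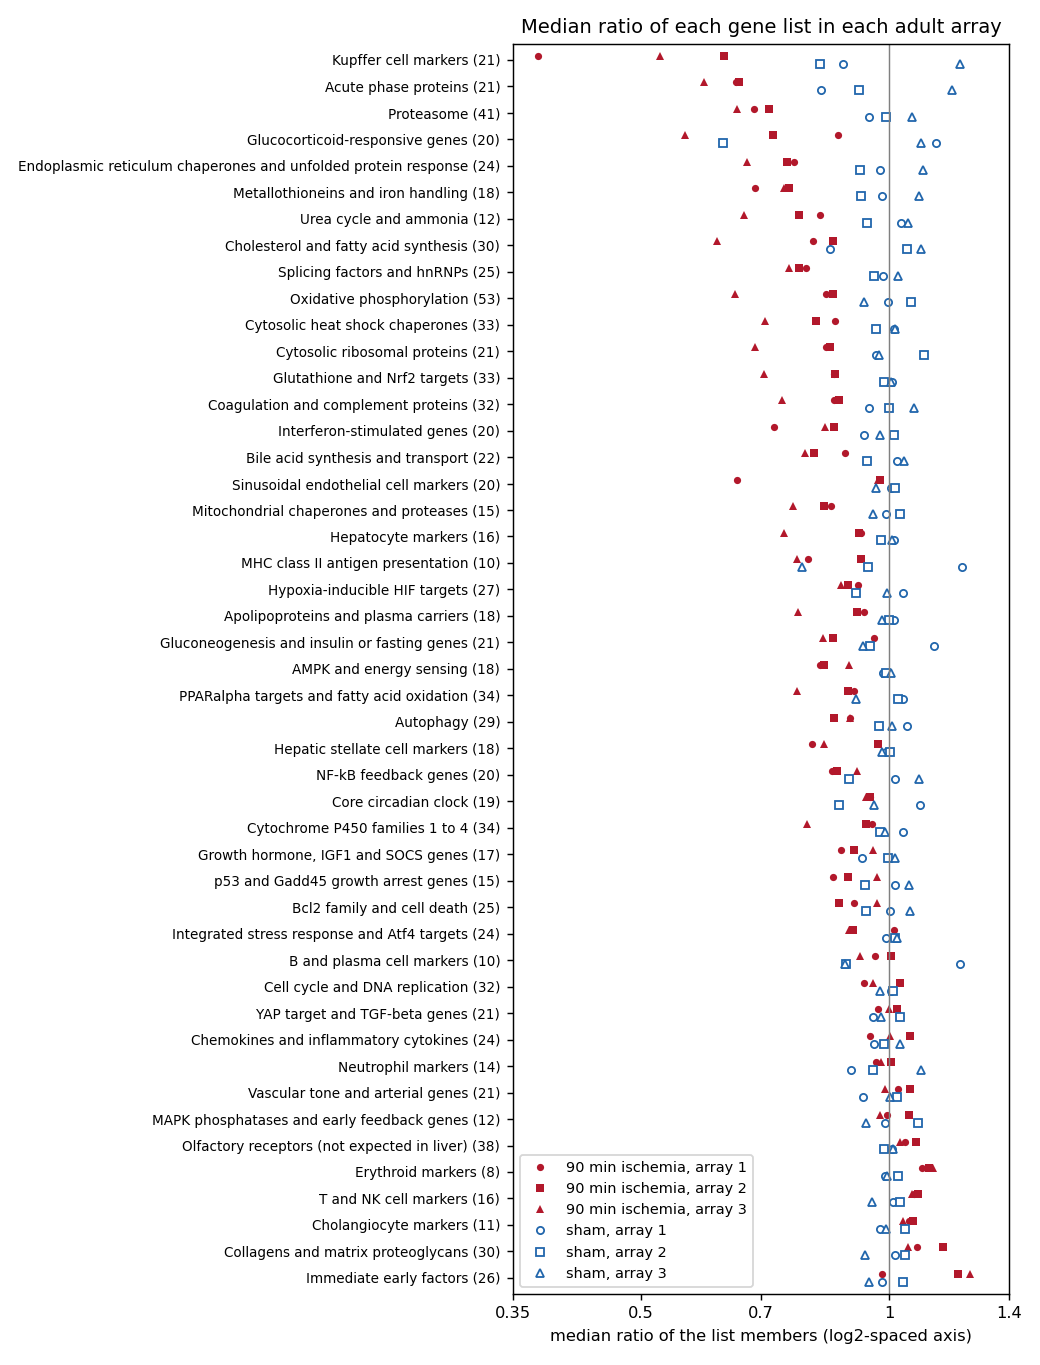
Median ratio over the members of each gene list (number measured in brackets) in each of the 3 adult 90 min ischemia arrays (filled) and the 3 adult sham arrays (open), as multiples of the sham mean on a log2-spaced axis. The Kupffer cell markers lie lowest, at 0.376 to 0.632 after 90 min against 0.826 to 1.22 after sham, and the immediate early factors, with the highest median log2 fold change of the lists at 0.22, lie at 0.981 to 1.25 after 90 min against 0.946 to 1.04 after sham.

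Against the shorter durations of adult ischemia, few genes were set apart. Tested directly, 90 min differed from 60 min in 2 of 26180 probe sets (0.00764%), both higher and without a symbol, and from 30 min in 4 (0.0153%), 3 higher without a symbol (0.0115%) and 1 lower, Dhrs1 (0.00382%). At an unadjusted p under 0.05 there were 915 and 1932. Dhrs1 had ratios of 0.568, 0.643 and 0.593 after 90 min, against 0.872, 0.883 and 1.15 after 30 min (-0.68 ± 0.11, adjusted p = 0.0498), with 0.701, 0.698 and 0.693 after 60 min between them. The strongest of the unnamed probe sets stood at 0.914, 0.826 and 0.913 after 30 min, 1.06, 1.19 and 1.14 after 60 min and 2.24, 1.96 and 1.71 after 90 min, so that the 90 min arrays lay above all others.

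Set beside the same 3 sham arrays, which these comparisons share, no probe set passed after 30 min (2701 at an unadjusted p under 0.05), 2067 passed after 60 min (7.9%; 441 higher, 1.68%, and 1626 lower, 6.21%) and 1323 after 90 min. The Kupffer marker median was -0.39 after 30 min, -0.48 after 60 min and -0.94 after 90 min, with 0, 2 and 16 members past the test (7.88% of named genes fell after 60 min). The proteasome median was -0.24, -0.55 and -0.54, with 0, 21 and 17 past it. For single genes, Cd163 had log2 fold changes of -0.88, -0.87 and -1.84, Psme4 of -0.29, -0.48 and -0.74, Hspa1a of -0.04, 0.12 and 1.04, Ccn1 of 0.50, 0.88 and 0.82 and Cxcl1 of -2.20, -2.63 and -2.04 after 30, 60 and 90 min. None of these genes differed between 90 and 60 min or between 90 and 30 min at an adjusted p under 0.05.

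**Figure D5:**
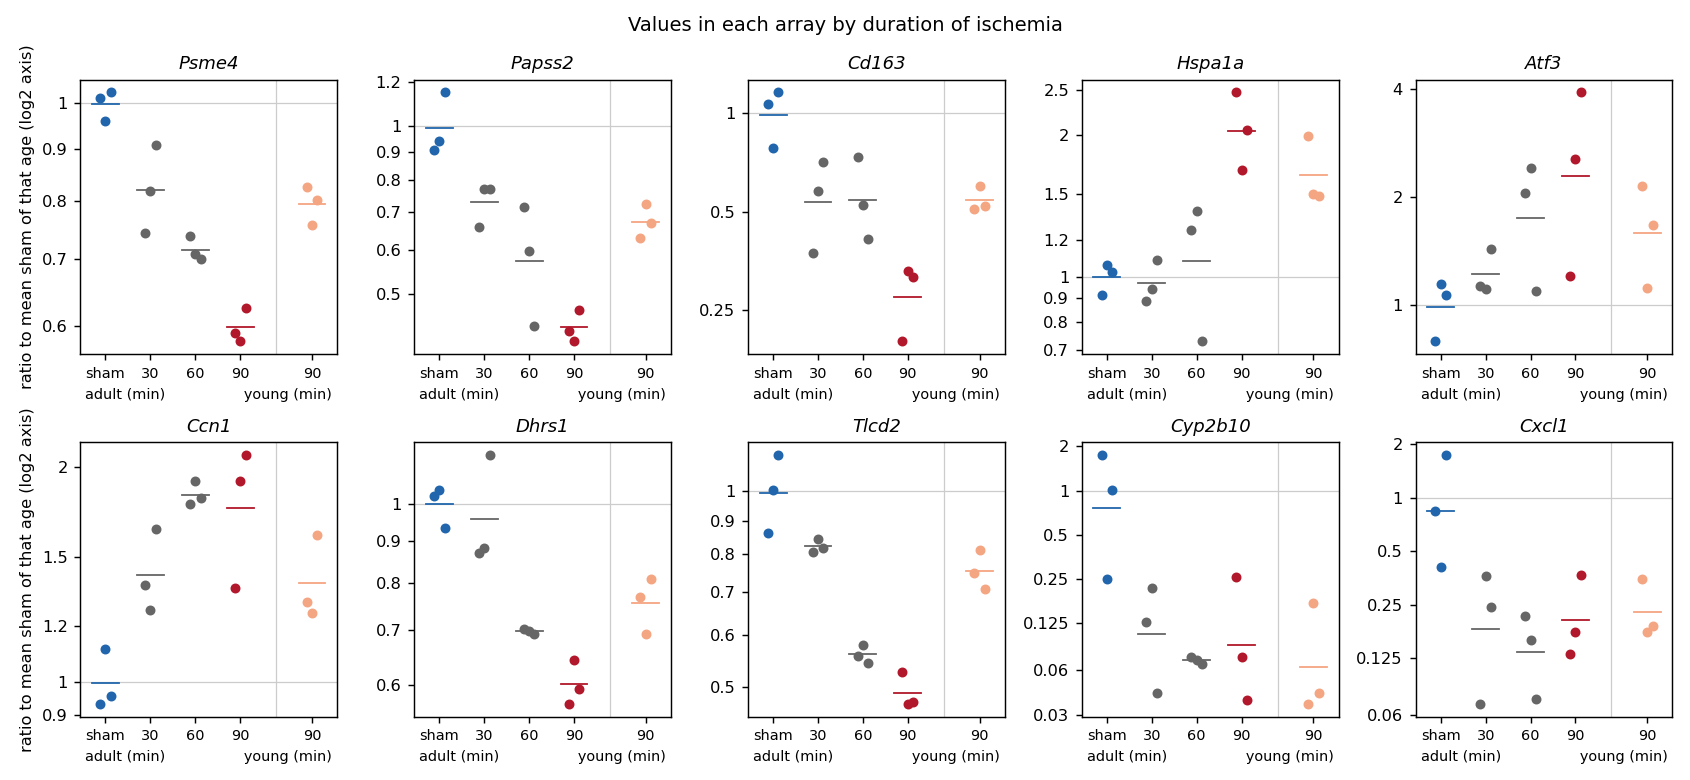
Ratio to the mean sham value of the same age in each array (points; lines are the geometric group means) for 10 genes, by duration of ischemia in adult liver and at 90 min in young liver, on log2 axes that differ between panels. In Hspa1a the 3 adult 90 min arrays, at 1.69 to 2.47, lie above every adult array of the other durations, while in Cxcl1 the 30, 60 and 90 min arrays all lie below the sham arrays.

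Young mice after the same 90 min were set against their own sham arrays, and 29 of 26180 probe sets passed there (0.111%; 12 higher and 17 lower). In young liver the Kupffer marker median was -0.30 and the proteasome median -0.13, with no member of either list past the test (0.105% of named genes fell there). Tested as the difference of the 2 responses, adult minus young at 90 min, no probe set passed (limma, 2949 at an unadjusted p under 0.05), so the test of the difference named no gene. Cd163 had log2 fold changes of -1.84 ± 0.25 in adult and -0.88 in young liver (adjusted p of the difference 0.42), Hspa1a of 1.04 ± 0.25 and 0.76 (0.74), and Gpcpd1, a phosphodiesterase of choline metabolism, of -0.72 ± 0.27 and -1.48 (0.46). Chka, choline kinase, lay at 0.13 in adult and 1.20 in young liver (0.42), and Prox1, a hepatocyte and lymphatic transcription factor, at 0.18 and 0.59 (0.42).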

How the data were processed

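RNA of 24 mouse liver samples was measured on Affymetrix 3′ arrays. The deposited table gives 1 ratio per probe set and array, and the submitters' processing notes name RMA as the summary method without a version. Tested on the table, the 3 sham arrays of each age average 1 for every probe set, so each deposited ratio is relative to the sham mean of its age. Genome build: not given in the sources used here. Array brightness is not kept, so no filter on dim probe sets could be run. The number of arrays limits the precision.

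The log2 ratios were fitted with limma 3.58.1 in R 4.3.3 over all 24 arrays and 8 group means, and p-values were adjusted by Benjamini-Hochberg over 26180 probe sets, with 0.05 as threshold. Errors after ± are standard errors of log2 differences, with the spread pooled over all 24 arrays. The procedure was tested on simulated data. Of the probe sets, 15228 carried 1 symbol and 10952 none, and each of 14351 genes stands with 1 probe set (RefSeq mRNA before noncoding before predicted accessions, then the lowest accession). Arrays are numbered in accession order.

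The text names the 12 largest rises and 12 largest falls past the threshold without overlap between groups, up to 6 members of each gene list with the largest changes, every Kupffer cell marker, the 6 largest changes of each other comparison and a short set of genes (such as Jun, Vegfa and Mt2). Other names are marked as chosen after their values were seen. The members and lists were chosen with earlier results of these data known. Alternatives were 1 probe set per gene, quantile normalization, centring on the array median, a pseudocount of 0.1, the title code as a block, fewer arrays in the fit, a robust prior and leaving out each array. Values within a title code part were added after seeing the data. Promoter sequences are RefSeq's (GRCm38.p6).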

Additional observations from a re-analysis of the deposited data

Results flagged for a closer look

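The probe sets in which the 90 min arrays differed from a shorter duration of adult ischemia by a direct limma test were looked at again. Of these, 2 without a symbol were higher after 90 than after 60 min, with log2 differences of 0.79 and 0.80 (adjusted p = 0.0132 for each). Their ratios were nearly the same in each array, and whether they read separate transcripts was not tested. The same 2 and 1 more without a symbol were higher after 90 than after 30 min, with log2 differences of 1.14, 1.15 and 1.00 (adjusted p of 3.716e-05, 3.716e-05 and 0.00102). The first of them had ratios of 0.911, 0.829 and 0.913 after 30 min, 1.07, 1.19 and 1.14 after 60 min and 2.24, 1.96 and 1.69 after 90 min in adult liver, and 1.49, 1.30 and 1.50 after 90 min in young liver.

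Dhrs1, the short-chain dehydrogenase, was lower after 90 than after 30 min by a log2 difference of -0.68 (adjusted p = 0.0498). Of the 30 min arrays, 1 stood at 1.15 and the others at 0.872 and 0.883, and all 3 lay above the 90 min arrays.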

How the results depend on the processing

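Against sham, 1323 probe sets passed after 90 min. The count was 1326 with centred arrays, 1310 with a pseudocount of 0.1 and 1323 with a robust prior. It was 6 after quantile normalization, 263 with adult arrays only, 3107 with the 6 arrays compared only and 2271 with the title code as a block, and 22 to 1152 with 1 array left out. The cause of these shifts was not tested. Of the 127 genes named and tracked, 100 passed and 8 of these passed in each of the 6 fits without 1 array. After quantile normalization 97 of the 100 kept their direction but did not pass.

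The count against 60 min, 2, was 0 with 1 probe set per gene, adult arrays only, the groups compared only, quantile normalization and the title code block, and 0 to 3 with 1 array left out. The count against 30 min, 4, was 0 with 1 probe set per gene and with the groups compared only, 7 with centred arrays, 10 with the block and 3 to 11 with 1 array left out. The count for adult minus young stayed 0 in every fit run. The sign of Nr4a1 turned between ischemic array 1 and sham array 2 (-0.0397), as did that of Cyp2b10 (0.0446), and Chka ran from -0.0334 to 0.31 with 1 array left out.

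No paired analysis was possible because the labels give no replicate numbers, and the part of the title code that groups share was used as a block in its place. The filter on dim probe sets was not run because the ratios keep no brightness, and for the same reason signal over background is unknown here.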
